A study of Mus musculus with 4 samples.

Results

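Ccl3, Ccl4, Ccl5 and Xcl1 are chemokine ligand genes that activated and cytolytic T cells are known to express. They were followed here in T cells taken from mouse tumors. The genes were chosen by symbol and are 4 of the 32285 genes counted in each library. All 4 were measured in all 4 libraries. The study used 105K, a mouse kidney tumor line that lacks Tsc2 and therefore has high mTORC1 activity. Cells of the line were transduced with a non-targeting hairpin (sh-NC) or with one that targets Cd276, which encodes B7-H3, an immune checkpoint protein of the B7 family (sh-B7-H3 (1)). They were used as mixed transduced populations and not as single clones, and were grown under the skin of wild-type C57BL/6J males injected at 6 weeks of age. Per group 80 tumors were pooled, dissociated and sorted for live CD3+ cells, and the sorted cells were profiled by CITE-seq, which counts RNA molecules and antibody tags in the same cell. Each group has 2 libraries. The labels describe them as duplicates of 1 pool of tumors and the study's text as independent samples, so every p-value below measures the spread between libraries and not between mice. The hairpin acts in the tumor cells, so the RNA of sorted T cells does not check the knockdown.

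Chemokines are small secreted proteins that bind receptors coupled to G proteins and direct the movement of leukocytes. CCL3 and CCL4 (the macrophage inflammatory proteins) and CCL5 (RANTES) belong to the CC family. CCL3 and CCL5 bind CCR1 among other receptors, through which monocytes, macrophages, dendritic cells and T cells are drawn to sites of inflammation. Activated T cells transcribe Ccl3 and Ccl4 quickly after receptor stimulation, whereas Ccl5 is kept at high levels in effector and memory CD8 T cells and stored for release. XCL1 (lymphotactin) is a C chemokine that binds XCR1, a receptor held mainly by the dendritic cells that present antigen to CD8 T cells. By the mm10 annotation, Ccl5 (ENSMUSG00000035042), Ccl3 (ENSMUSG00000000982) and Ccl4 (ENSMUSG00000018930) lie on chromosome 11, at positions 83525778 to 83530518, 83647844 to 83649355 and 83662584 to 83664683. Ccl4 is read from the plus strand and its neighbor Ccl3 from the minus strand. Xcl1 (ENSMUSG00000026573) lies on the minus strand of chromosome 1, at 164931644 to 164935527, inside the span of Gm20743, a gene of the opposite strand.

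The stretch before a gene's start holds the letters that transcription factors read, so it is shown for the members whose sequence was at hand. RefSeq sequence of GRCm38.p6 was at hand for Ccl3 and Xcl1, and not for Ccl4 and Ccl5. The 250 bases before each start run 5′ to 3′ on the gene's own strand, the minus strand of chr11:83649379-83649628 for Ccl3 and of chr1:164935523-164935772 for Xcl1. The start meant here is RefSeq's, the base next to the window, which differs from the gene bounds given above: it lies upstream of the annotated Ccl3 start and just inside the annotated Xcl1 gene. Capitals mark the motif matches described next.
Ccl3: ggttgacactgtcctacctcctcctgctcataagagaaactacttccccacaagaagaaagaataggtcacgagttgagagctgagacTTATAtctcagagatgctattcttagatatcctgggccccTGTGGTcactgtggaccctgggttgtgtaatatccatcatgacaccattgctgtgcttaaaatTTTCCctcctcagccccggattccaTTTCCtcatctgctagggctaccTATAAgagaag
Xcl1: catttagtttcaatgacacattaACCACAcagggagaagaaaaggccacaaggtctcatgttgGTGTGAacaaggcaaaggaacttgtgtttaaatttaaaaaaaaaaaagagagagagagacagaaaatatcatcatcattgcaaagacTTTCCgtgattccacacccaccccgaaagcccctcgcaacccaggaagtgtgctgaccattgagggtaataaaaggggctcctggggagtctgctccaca
Of 7 motifs searched on both strands, the Ccl3 window held 2 copies of the NFAT core GGAAA, at -59 to -55 and -34 to -30 from the RefSeq start, both written as TTTCC. It also held 1 RUNX motif (TGTGGT) at -122 to -117 and 2 TATA matches (TATAA), at -11 to -7 and, written as TTATA, at -162 to -158. The Xcl1 window held 1 NFAT core at -100 to -96, 1 RUNX motif at -227 to -222 written as ACCACA, and 1 T-box motif (GTGTGA) at -187 to -182. The AP-1 letters TGANTCA, the CRE letters TGACGTCA and the kappa B-like letters GGNNNTTCC, which can share bases with an NFAT core, were not in either window. Such matches are common: of 32817 promoters 55.6% held the NFAT core, 14.0% the RUNX, 12.3% the T-box and 22.8% the TATA letters, while 6.75% held AP-1, 15.7% the kappa B-like and 1.55% the CRE letters. The matches describe letters only.

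The libraries held 7030 to 12112 called cells and 79224898 to 132820909 RNA molecules (unique molecular identifiers, UMIs). After limits of 200 to 3000 genes and 5% mitochondrial UMIs, 7549 and 6233 sh-NC and 3499 and 4619 sh-B7-H3 (1) cells were left. The mitochondrial limit removed 20.9 and 21.3% of called cells in the sh-NC libraries and 37.6 and 36.5% in the sh-B7-H3 (1) libraries, and the median depth of the kept cells was 8070 and 8511 against 6635 and 6827 UMIs. No 2 libraries shared more than 35 barcodes. Cells were called by their RNA as Cd4 cells (1683 and 1373 in sh-NC, 695 and 904 in sh-B7-H3 (1)), Cd8 cells (3123 and 2713, 1252 and 1732) and Foxp3 cells (375 and 346, 192 and 215). Foxp3 is the defining factor of regulatory T cells. The CD4 and CD8b antibody tags followed the calls. The CD8b tag took 13529 to 14903 CPM (counts-per-million, here of all tags) in Cd8 cells and 797 to 944 in Cd4 cells. The CD4 tag took 2042 and 1990 CPM in sh-NC and 4554 and 4372 CPM in sh-B7-H3 (1) Cd4 cells. In Cd8 cells it took 306 and 280 against 417 and 412 CPM. The CD4 tag of Cd4 cells was thus higher in both knockdown libraries, a difference that was not tested. The CD8a tag separated them less, at 768 to 1150 in Cd8 and 496 to 642 in Cd4 cells. In Foxp3 cells the CD4 tag took 1586 and 1560 against 2237 and 2119, and the CD8b tag 809 to 1123. Marker RNA of lists set for other cells also differed between the groups, in both directions. The summed level of 10 myeloid genes was 6.51 and 7.66 against 24.7 and 22.3 CPM of RNA UMIs in Cd4 cells and 7.48 and 7.46 against 27.3 and 27.3 CPM in Cd8 cells, with 0 to 2 of the genes undetected. That of 6 gamma-delta T cell genes was 41.8 and 48.8 against 237 and 196 CPM in Cd4 cells and 45.0 and 57.8 against 284 and 255 CPM in Cd8 cells, with 1 gene undetected in each. The 5 NK genes summed to 0 to 2.62 CPM in every population, with 2 to 5 of them undetected. Lower in the knockdown were 7 tumor or stroma genes, at 66.4 and 64.7 against 43.5 and 42.5 CPM in Cd4 cells. In Cd8 cells they stood at 40.6 and 41.3 against 27.3 and 27.8 CPM. The 4 B cell genes stood at 15.7 and 14.8 against 7.18 and 9.31 CPM in Cd8 cells and overlapped in Cd4 cells. The part of the gamma-delta RNA, the mitochondrial share and the depth in the results was not tested, beyond the values with a mitochondrial limit of 10%, thinned cells and fewer myeloid- or NK-marker cells that follow.

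The first question was whether T cells from B7-H3 knockdown tumors carried more of these ligands. In Cd4 cells, Ccl3, Ccl4 and Ccl5 all rose, to 4.07 to 5.52 times the control mean, and Xcl1 did not pass the test. A gene was called where edgeR's quasi-likelihood test on UMIs summed per library gave a Benjamini-Hochberg adjusted p under 0.05 and a log2 fold change of at least 1 in either direction. Ccl3 stood at 242 and 271 CPM in the sh-NC libraries and at 1560 and 1273 CPM in the sh-B7-H3 (1) libraries. The knockdown libraries were thus both far above the controls. On the log2 scale Ccl3 rose by 2.36 ± 0.0623 (SE, 2 libraries a group; edgeR quasi-likelihood test, Benjamini-Hochberg adjusted p = 4.6e-18). Ccl4 stood at 487 and 512 against 2201 and 1870 CPM and rose by 1.92 ± 0.0504 (edgeR quasi-likelihood test, Benjamini-Hochberg adjusted p = 4.58e-18). Ccl5 stood at 1401 and 1918 against 8952 and 8301 CPM and rose by 2.27 ± 0.0802 (edgeR quasi-likelihood test, Benjamini-Hochberg adjusted p = 8.0e-16). For these 3 ligands the gap between groups was several times the gap between the 2 libraries of a group. Xcl1 stood at 28.9 and 25.2 against 18.7 and 45.0 CPM, so that the groups overlapped (0.19 ± 0.194, edgeR quasi-likelihood test, Benjamini-Hochberg adjusted p = 0.458). Of all genes tested in Cd4 cells 8.5% were called higher, against 3 of the 4 ligands. In a sum over cells, fewer cells that make a transcript and less of it per cell cannot be told apart.

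The Xcl1 value in Cd4 cells rested on few cells. In sh-NC 1 a single cell held 158 of 386 Xcl1 UMIs and in sh-NC 2 a single cell held 223 of 290. The control sums of Ccl3 and Ccl4 were concentrated too. The richest 1% of Cd4 cells held 73.7 and 73.4% of Ccl3 UMIs in sh-NC against 27.2 and 29.3% in sh-B7-H3 (1) libraries. For Ccl4 these were 75.9 and 74.7 against 27.4 and 28.3%, and 1 cell of sh-NC 1 held 1175 of 6515 UMIs. The errors given do not cover this spread between cells. With the richest cell of each library left out, a choice made after seeing these values, the Xcl1 difference was 0.93 (edgeR quasi-likelihood test, Benjamini-Hochberg adjusted p = 0.0214), which still missed the fold limit. The other 3 ligands then gave 2.38, 2.05 and 2.32. With a myeloid limit of 2 UMIs per cell instead of 5 they gave 2.33, 1.87 and 2.26, with cells carrying NK genes left out 2.37, 1.92 and 2.30, and with 10% of each sum subtracted as free RNA 2.35, 1.92 and 2.29. A mitochondrial limit of 10% gave 2.23, 1.77 and 2.13, and cells thinned to 2000 UMIs gave 2.15, 1.75 and 2.09.

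**Figure D1:**
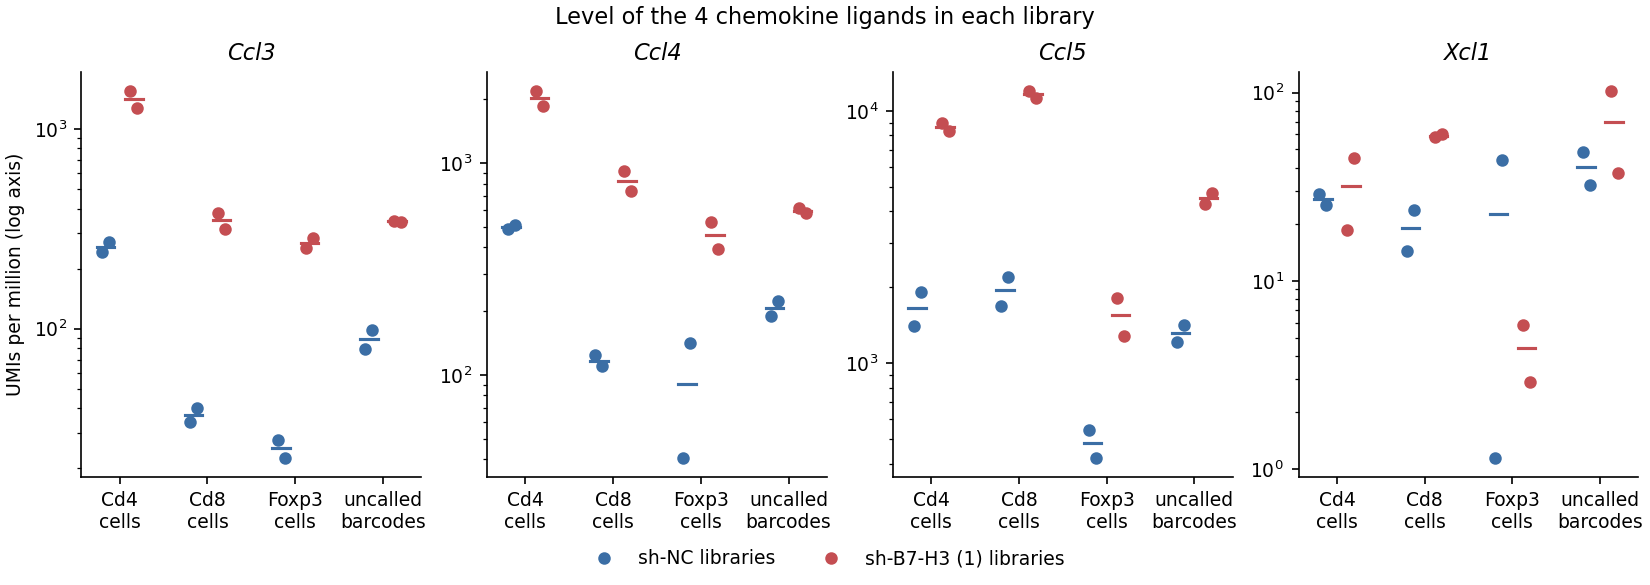
Level of each ligand in CPM (log axis, 1 scale per gene) in Cd4, Cd8 and Foxp3 cells and in uncalled barcodes of at most 100 UMIs. Points are libraries (2 per group) and bars their group means. Ccl3, Ccl4 and Ccl5 of both knockdown libraries lie above both controls in every column, whereas Xcl1 is separate only in Cd8 cells and has 1 high control library, at 44.0 CPM, in Foxp3 cells.

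In Cd8 cells all 4 ligands rose, against 7.95% of all genes tested called higher. Ccl3 stood at 34.0 and 40.0 CPM in sh-NC and at 380 and 317 CPM in sh-B7-H3 (1) libraries and rose by 3.13 ± 0.0677 on the log2 scale (SE, 2 libraries a group; edgeR quasi-likelihood test, Benjamini-Hochberg adjusted p = 3.71e-17). Ccl4 stood at 124 and 110 against 914 and 736 CPM and rose by 2.72 ± 0.0700 (edgeR quasi-likelihood test, Benjamini-Hochberg adjusted p = 4.89e-16). Ccl5 stood at 1695 and 2206 against 12036 and 11214 CPM and rose by 2.48 ± 0.0716 (edgeR quasi-likelihood test, Benjamini-Hochberg adjusted p = 1.4e-15). Each of these differences was far larger than the difference between libraries of a group. Xcl1 stood at 14.4 and 23.9 against 58.1 and 60.0 CPM and rose by 1.55 ± 0.125 (edgeR quasi-likelihood test, Benjamini-Hochberg adjusted p = 4.18e-09). The Xcl1 groups did not overlap, but the call was lost when simulated doublets were removed (0.93) and when cells with over 3000 genes were kept (0.65). A single cell held 197 of the 550 Xcl1 UMIs in sh-B7-H3 (1) 1 and 169 of 812 in sh-B7-H3 (1) 2.

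Foxp3 cells gave smaller sums, of 192 to 375 cells. Ccl3 stood at 27.8 and 22.4 CPM in the sh-NC and at 254 and 285 CPM in the sh-B7-H3 (1) libraries and rose by 3.42 ± 0.130 (SE, 2 libraries a group; edgeR quasi-likelihood test, Benjamini-Hochberg adjusted p = 5.07e-22). In each knockdown library a single cell held most of these UMIs (156 of 304 and 219 of 391), and without the richest cells the difference was 3.12. Ccl4 stood at 40.4 and 141 against 525 and 392 CPM and rose by 2.33 ± 0.196 (edgeR quasi-likelihood test, Benjamini-Hochberg adjusted p = 2.78e-11), although DESeq2 gave an adjusted p of 0.0742. The size depended on the control library, with 1.69 without sh-NC 1 and 3.47 without sh-NC 2. A single cell held 334 of the 628 Ccl4 UMIs in sh-B7-H3 (1) 1 and 200 of the 538 in sh-B7-H3 (1) 2. Ccl5 stood at 545 and 421 against 1820 and 1288 CPM and rose by 1.67 ± 0.0986 (edgeR quasi-likelihood test, Benjamini-Hochberg adjusted p = 7.26e-16). No control library reached a knockdown library for these ligands, and 0.818% of all genes tested were called higher. Where 2 Foxp3 UMIs were asked of a cell instead of 1, the differences shrank to 1.23 for Ccl3, 0.87 for Ccl4 and 0.94 for Ccl5, and only Ccl3 passed. In the Foxp3 sums the myeloid genes stood at 15.6 and 18.0 against 32.6 and 26.9 CPM, and the gamma-delta genes at 30.8 and 12.8 against 51.0 and 46.6 CPM.

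Xcl1 in Foxp3 cells rested on 1 cell. It stood at 1.14 and 44.0 CPM in the sh-NC and at 5.85 and 2.91 CPM in the sh-B7-H3 (1) libraries. In sh-NC 2 a single cell held 108 of the 110 UMIs, and the groups overlapped. The test called Xcl1 lower by 2.36 ± 0.746 on the log2 scale (edgeR quasi-likelihood test, Benjamini-Hochberg adjusted p = 0.0490), in a comparison where 0.386% of all genes were called lower. DESeq2 gave it no adjusted p, and without that cell the gene had too few UMIs to be tested.

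Across cell types the order of the levels depended on the ligand. Ccl3 was highest in Cd4 cells, then in Cd8 cells, and lowest in Foxp3 cells, and no library of 1 cell type reached the range of the next within its group. Ccl4 followed the same order, but the Cd8 and Foxp3 ranges of the sh-NC libraries overlapped (110 to 124 and 40.4 to 141 CPM). Averaged over the groups and with the library as a block, Cd8 cells held less Ccl3 than Cd4 cells, by -2.27 ± 0.0237 on the log2 scale, and less Ccl4, by -1.56 ± 0.0189 (SE, 4 libraries; both called). Of all genes tested, 3.76% were lower in this comparison. Ccl5 was higher in Cd8 cells in each of the 4 libraries, by 0.47 ± 0.0123, below the fold limit, and the control ranges of the 2 cell types overlapped. In both groups Ccl5 was lowest in Foxp3 cells. Xcl1 differed between Cd8 and Cd4 cells by 0.29 ± 0.0642, also below the limit, and its Cd4, Cd8 and Foxp3 ranges had no shared order in the 2 groups. Foxp3 cells held less of the CC ligands than Cd4 cells: Ccl3 by -3.04 ± 0.0539, Ccl4 by -2.50 ± 0.0588 and Ccl5 by -2.30 ± 0.0393, against 3.25% of all genes called lower. Xcl1 was called lower too, by -1.81 ± 0.270, but in sh-NC 2 it was higher in Foxp3 than in Cd4 cells (44.0 and 25.2 CPM), where 1 Foxp3 cell held most of it. Its value was -3.95 without that library and -1.19 without sh-B7-H3 (1) 2, and the call was lost in DESeq2 (adjusted p = 0.152). In these fits the spread between libraries was close to counting error, and the errors given do not cover the spread between cells.

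Whether the knockdown effect itself differed between cell types was tested as an interaction. Relative to Cd4 cells, the log2 difference between groups was larger in Cd8 cells by 0.78 ± 0.0489 for Ccl3, 0.80 ± 0.0379 for Ccl4 and 0.20 ± 0.0246 for Ccl5, all below the fold limit. For Xcl1 the difference was 1.37 ± 0.128 and was called (edgeR quasi-likelihood test, Benjamini-Hochberg adjusted p = 3.47e-21), where 0.515% of all genes were. Without the richest cells it was 0.42 (edgeR quasi-likelihood test, Benjamini-Hochberg adjusted p = 0.160), and DESeq2 gave an adjusted p of 0.972. In Foxp3 cells the effect exceeded that in Cd4 cells by 1.08 ± 0.135 for Ccl3, which was called (edgeR quasi-likelihood test, Benjamini-Hochberg adjusted p = 3.87e-10), and by 0.45 ± 0.130 for Ccl4. For Ccl5 it differed by -0.62 ± 0.0792, and for Xcl1 by -2.46 ± 0.590, which was called. Of all genes tested, 3.29% were called in 1 or the other direction. The Ccl3 call was lost without the richest cells (0.76) and in DESeq2 (adjusted p = 0.0590). The Xcl1 value rests on the 1 cell of sh-NC 2 described above.

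Free RNA was measured in uncalled barcodes of at most 100 UMIs. There Ccl3 stood at 79.1 and 98.3 CPM in sh-NC and 348 and 342 CPM in sh-B7-H3 (1), Ccl4 at 190 and 222 against 611 and 581, Ccl5 at 1212 and 1417 against 4279 and 4741, and Xcl1 at 48.4 and 32.4 against 102 and 37.3. The free RNA was thus higher in both knockdown libraries for the CC ligands, as in the cells, while the Xcl1 groups overlapped. Ccl3 in Cd4 cells lay at 2.76 to 4.48 times this level and Ccl5 in Cd8 cells at 1.40 to 2.81 times. Ccl3 in Cd8 cells lay at 0.430 and 0.407 times this level in sh-NC and at 1.09 and 0.928 times in sh-B7-H3 (1) libraries, and Ccl4 at 0.650 and 0.494 against 1.5 and 1.27 times. Xcl1 in Cd8 cells lay at 0.297 and 0.738 against 0.567 and 1.61 times it, so that 3 of the 4 libraries were below the free RNA. In Foxp3 cells Ccl3 lay at 0.351 and 0.228 against 0.730 and 0.832 times it and Ccl4 at 0.212 and 0.637 against 0.859 and 0.674 times. Ccl5 there lay at 0.450 and 0.297 against 0.425 and 0.272 times, so that relative to the free RNA the groups overlapped. A much lower level was found in resting Cd4 cells, which carry Ccr7, a gene of naive and central memory T cells, and no Nkg7, a gene of cytotoxic granules. They held Ccl3, Ccl4 and Ccl5 at 1.24 to 2.32% of the uncalled level in sh-NC and at 3.06 to 4.85% in sh-B7-H3 (1) libraries. Since they were picked for having no Nkg7, these levels do not bound the free RNA in other cells.

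The share of cells that held a transcript was compared after each cell was thinned to 2000 UMIs. In Cd4 cells Ccl3 was found in 4.22 and 5.54% of sh-NC and in 31.9 and 29.8% of sh-B7-H3 (1) cells, Ccl4 in 6.07 and 6.20 against 38.6 and 36.6%, and Ccl5 in 11.1 and 15.1 against 68.5 and 68.7%. Xcl1 was found in 0.714 and 0.583 against 1.60 and 2.25%. In Cd8 cells the shares were 1.99 and 2.47 against 16.3 and 14.5% for Ccl3, 5.74 and 7.64 against 33.0 and 29.6% for Ccl4, 20.1 and 25.2 against 74.9 and 73.2% for Ccl5, and 1.32 and 1.81 against 3.36 and 3.24% for Xcl1. In Foxp3 cells they were 1.62 and 2.02 against 5.35 and 10.8% for Ccl3, 4.04 and 3.18 against 9.63 and 14.6% for Ccl4, and 24.8 and 25.4 against 55.1 and 55.9% for Ccl5. Both knockdown libraries lay above both controls in each of these. For such a separation the exact permutation test of 2 against 2 libraries gives p = 0.333 (two-sided), the smallest this design allows. The share of all genes that separate in this way was not counted. Resting Cd4 cells were set beside these: 0.197 and 0.717 against 3.85 and 5.42% held Ccl3, and 3.35 and 4.54 against 32.3 and 31.3% held Ccl5. They were picked by the absence of Nkg7, which rose with the knockdown, and after the data were seen. A low ligand share may follow from that choice, so they are no measure of background. The Ccl3 share of knockdown Foxp3 cells overlapped the range of the knockdown resting Cd4 cells. Without thinning, Ccl3 was found in 5.59 and 8.01% of sh-NC and in 43.6 and 44.5% of sh-B7-H3 (1) Cd4 cells.

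**Figure D2:**
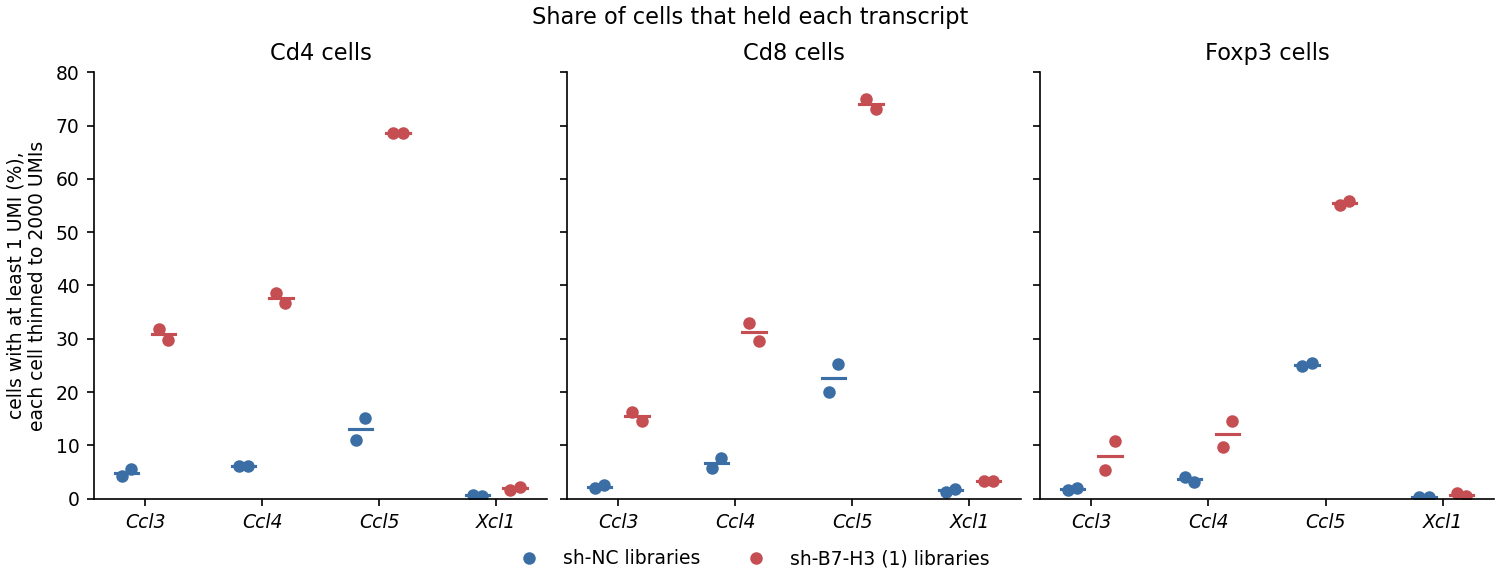
Share of Cd4, Cd8 and Foxp3 cells with at least 1 UMI of each ligand (%), each cell thinned to 2000 UMIs. Points are libraries (2 per group) and bars their group means. In Cd4 cells Ccl5 was found in 11.1 and 15.1% of control and 68.5 and 68.7% of knockdown cells, and Xcl1 stayed at 3.36% or lower in every population.

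The 3 CC ligands were often found together. Among Cd4 cells with Ccl3, 84.5 and 67.1% in sh-NC and 83.1 and 76.6% in sh-B7-H3 (1) libraries also held Ccl4, whereas of cells without Ccl3 only 2.61 and 2.62 against 17.8 and 19.7% did. Among Cd4 cells with Ccl4, 82.4 and 84.7 against 97.4 and 94.8% held Ccl5, and of those without Ccl4 6.46 and 10.5 against 50.4 and 53.5% did. In Cd8 cells with Ccl3, 64.5 and 62.7 against 66.2 and 69.3% held Ccl4, and of those without Ccl3 4.55 and 6.25 against 26.5 and 22.8% did. At this depth 87.2 and 83.3% of control Cd4 cells held none of the 4 ligands, against 28.6 and 27.8% of knockdown Cd4 cells. Those with 3 of the 4 made up 3.51 and 3.72 against 26.8 and 22.2%. Xcl1 was found in 41 and 49 control and 42 and 56 knockdown Cd8 cells. Of these, 61.0 and 77.6 against 85.7 and 82.1% held Ccl5, where cells without Xcl1 held it in 19.5 and 24.3 against 74.6 and 72.9%. Ccl3 was held by 14.6 and 6.12 against 9.52 and 14.3% of them, and by 1.82 and 2.41 against 16.6 and 14.6% of cells without Xcl1, so that in the knockdown libraries Ccl3 was no more frequent among cells with Xcl1.

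The ligands were next followed by cell state, since most of the Ccl3, Ccl4 and Ccl5 RNA of Cd4 and Cd8 cells sat in cells with Nkg7. A cell with at least 3 Nkg7 UMIs and no Ccr7 was put in an Nkg7 state. Nkg7 is itself an effector gene that rose with the knockdown, from 344 and 442 to 3081 and 2815 CPM in Cd4 cells. The Nkg7 state held 7.78 and 10.1% of Cd4 cells in sh-NC and 53.2 and 50.4% in sh-B7-H3 (1) libraries, 27.9 and 31.5 against 69.1 and 66.7% of Cd8 cells, and 3.47 and 4.62 against 14.1 and 13.5% of Foxp3 cells. These cells held 92.3 to 99.0% of the Ccl3, Ccl4 and Ccl5 UMIs of all Cd4 cells in every library. In Cd8 cells they held 97.0 and 95.5% of Ccl3 UMIs in sh-NC, and 81.3 and 86.5% in sh-B7-H3 (1) libraries. For Ccl4 the Cd8 shares were 96.6 and 95.0 against 80.5 and 86.2%, while for Ccl5 they were higher in the knockdown, at 88.9 and 90.5 against 93.7 and 93.1%. In Foxp3 cells they held 82.2 and 76.8% of the Ccl3 UMIs in sh-NC and 94.7 and 90.5% in sh-B7-H3 (1) libraries. For Ccl4 these shares were 55.7 and 73.2 against 86.9 and 84.0%, and for Ccl5 45.8 and 23.6 against 63.9 and 47.3%. The Nkg7-state Foxp3 cells numbered only 13 and 16 against 27 and 29.

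Within the Nkg7 state the Cd4 and Cd8 cells differed. All values for this state alone, and the settings tried on them, were chosen after the data were seen. Ccl3 in Nkg7-state Cd8 cells stood at 135 and 140 CPM in sh-NC and at 496 and 466 CPM in sh-B7-H3 (1) libraries, Ccl4 at 489 and 383 against 1182 and 1077, and Ccl5 at 6161 and 7316 against 18116 and 17705. The 3 rose by 1.71 ± 0.0486, 1.28 ± 0.0718 and 1.32 ± 0.0552 on the log2 scale, where 4.86% of all genes were called higher. As a share of the uncalled level of their own library they were not higher in the knockdown: Ccl3 stood at 171 and 143 against 142 and 136%, Ccl4 at 257 and 172 against 193 and 185%, and Ccl5 at 508 and 516 against 423 and 373%. That level was itself higher in both knockdown libraries, so the share does not correct for free RNA. The part of free RNA in these differences was not tested. Xcl1 stood at 42.2 and 73.7 against 80.2 and 84.8 CPM (0.42 ± 0.129, edgeR quasi-likelihood test, Benjamini-Hochberg adjusted p = 0.0132, below the fold limit). The size depended on the limit: at 10 Nkg7 UMIs the differences were 0.93, 0.50, 0.58 and -0.12, and none passed the fold limit. Without the richest 5% of cells they were 3.02, 2.10, 1.58 and 0.41, of which the CC ligands passed. Those cells held 91.7 and 89.6% of the Ccl3 UMIs in sh-NC against 76.1 and 77.4% in sh-B7-H3 (1) libraries. For Ccl4 and Ccl5 the controls were higher too. Taking them out thus widened the CC ligand differences, so that this setting is no check of them. Many control Cd8 cells lay near the limit, with 1 to 4 Nkg7 UMIs in 1151 of 3123 and 925 of 2713 cells, against 182 of 1252 and 282 of 1732 knockdown cells.

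In Nkg7-state Cd4 cells the summed levels were not higher in the knockdown. Ccl3 stood at 3461 and 3163 CPM in sh-NC and at 2853 and 2408 CPM in sh-B7-H3 (1) libraries, Ccl4 at 7063 and 5994 against 4006 and 3557, and Ccl5 at 20614 and 21449 against 16269 and 15910. The differences were -0.25 ± 0.0645, -0.71 ± 0.0636 and -0.31 ± 0.0512 (edgeR quasi-likelihood test, Benjamini-Hochberg adjusted p = 0.0207, 2.05e-08 and 4.21e-04). All 3 missed the fold limit, and 2.35% of all genes were lower at that adjusted p alone. As a share of the uncalled level Ccl3 stood at 4375 and 3219 against 820 and 704%, and Ccl4 and Ccl5 were lower in the knockdown too. The sums cover 131 and 139 control and 370 and 456 knockdown cells. The richest 5% of cells held 46.9 and 54.1% against 47.5 and 52.2% of the UMIs for Ccl3, where the groups overlapped, and 54.0 and 54.0% against 47.1 and 48.9% for Ccl4. Without the richest 5% of each library, 7 and 7 against 18 and 23 cells, the differences were -0.23, -0.53 and -0.28 (edgeR quasi-likelihood test, Benjamini-Hochberg adjusted p = 0.167, 1.43e-05 and 0.00292). Leaving out the 10 richest cells of each library instead, which is a larger share of the control than of the knockdown cells, turned the Ccl3 and Ccl4 differences to 0.54 and 0.24. The median cell was higher in both knockdown libraries for Ccl3 and Ccl4 and lower for Ccl5. It held 205 and 191 CPM of Ccl3 in sh-NC and 385 and 282 CPM in sh-B7-H3 (1) libraries, 478 and 493 against 635 and 602 CPM of Ccl4, and 13768 and 17728 against 13546 and 12771 CPM of Ccl5.

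Xcl1 in Nkg7-state Cd4 cells stood at 357 and 295 CPM in sh-NC and at 34.6 and 61.1 CPM in sh-B7-H3 (1) libraries and was called lower, by -2.65 ± 0.146 (edgeR quasi-likelihood test, Benjamini-Hochberg adjusted p = 1.61e-12), where 0.804% of all genes were. In sh-NC 2 a single cell held 77.7% of these UMIs, and without the richest 5% of cells only 0 to 5 UMIs were left in a library and Xcl1 could not be tested. The difference between the Cd8 and the Cd4 effect in the Nkg7 state was 1.96 ± 0.0868 for Ccl3, 1.99 ± 0.0846 for Ccl4, 1.62 ± 0.0952 for Ccl5 and 3.09 ± 0.161 for Xcl1, all called, against 2.47% of all genes. DESeq2 called all 4 as well. Without the richest 5% of cells it was 3.25, 2.62 and 1.85 for the CC ligands, a setting that widens the Cd8 difference as described above. At 10 Nkg7 UMIs it was 1.30, 1.35, 0.95 and 3.15, so that Ccl5 lost its call.

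**Figure D3:**
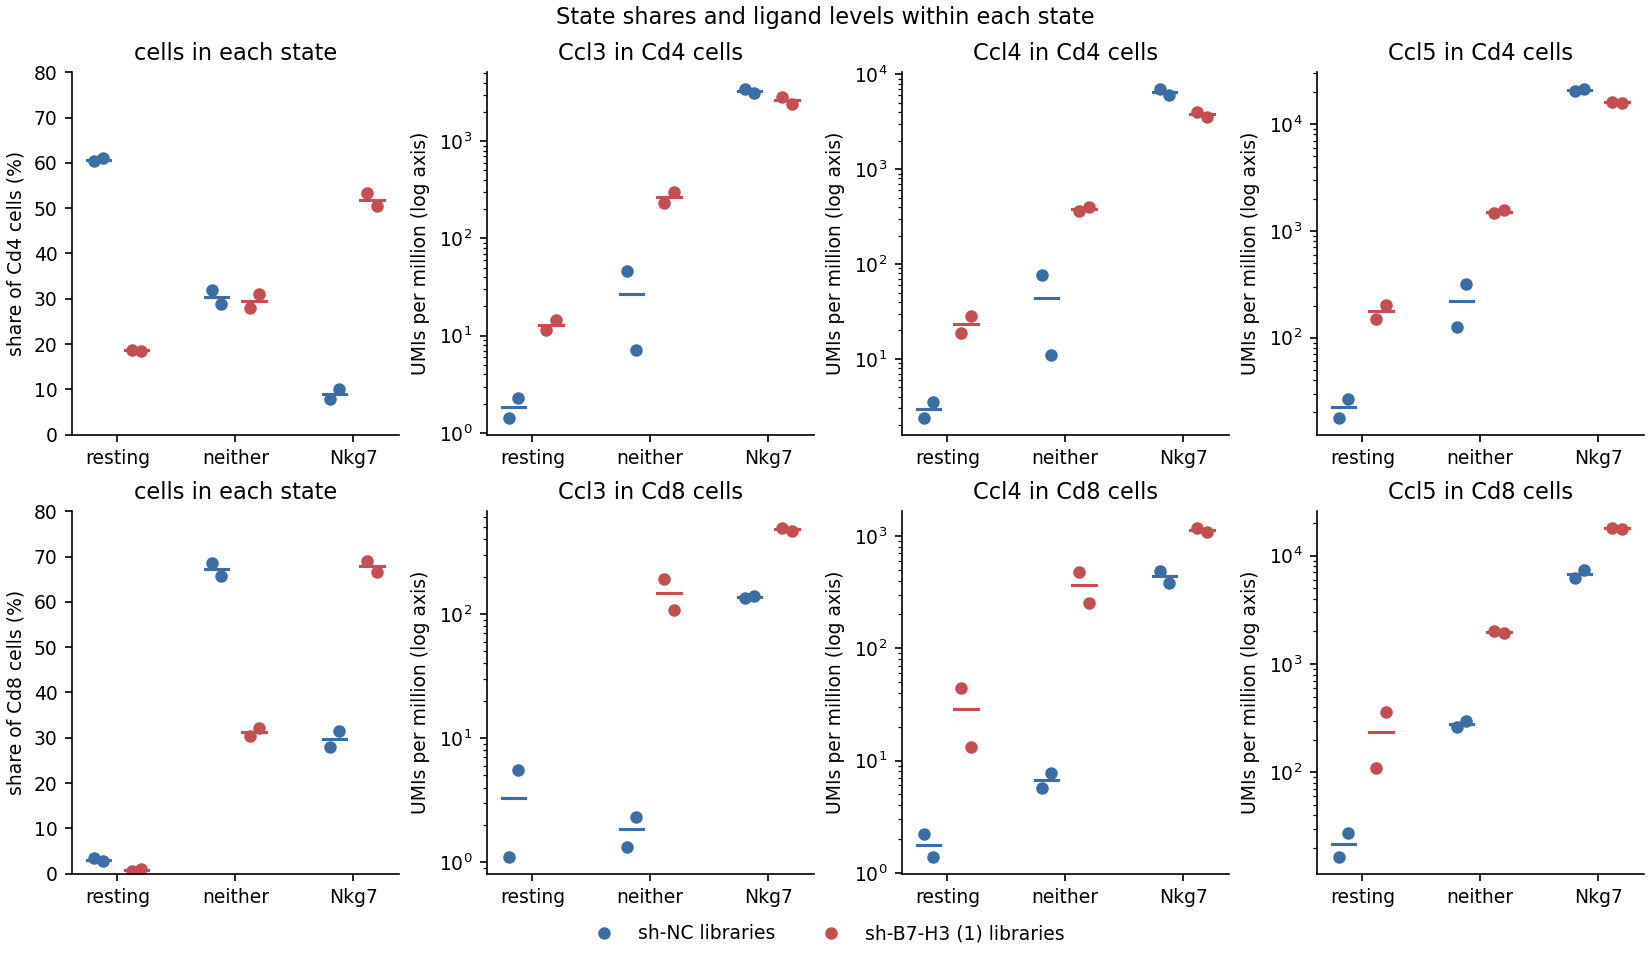
Left panels, share of Cd4 (top) and Cd8 cells (bottom) in the resting state, the Nkg7 state and neither (%); other panels, level of Ccl3, Ccl4 and Ccl5 within each state in CPM (log axis, 1 scale per panel; a library at 0 is not drawn). Points are libraries (2 per group) and bars their group means. The Nkg7 share of Cd4 cells was 7.78 and 10.1% in control and 53.2 and 50.4% in knockdown libraries, while the Ccl3 level within that state was 3461 and 3163 against 2853 and 2408 CPM.

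Cd8 cells that were neither resting nor in the Nkg7 state also gave higher CC ligand levels in both knockdown libraries, all below the free RNA of the same library. Ccl3 stood there at 1.34 and 2.34 CPM in sh-NC and at 190 and 107 CPM in sh-B7-H3 (1) libraries, and Ccl4 at 5.64 and 7.73 against 477 and 254 CPM. Ccl5 stood there at 260 and 299.9 against 2023 and 1941 CPM. The share of these cells that held Ccl4 at equal depth was 1.07 and 1.29 against 10.8 and 11.2%, and that of resting Cd4 cells 0.690 and 1.08 against 2.31 and 6.02%. As a share of the uncalled level, Ccl3 stood at 1.69 and 2.38 against 54.7 and 31.3%, Ccl4 at 2.96 and 3.48 against 78.1 and 43.7%, and Ccl5 at 21.4 and 21.2 against 47.3 and 40.9%. The part of free RNA in these levels was not tested, and the share of all genes that separated in this way was not counted.

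**Figure D4:**
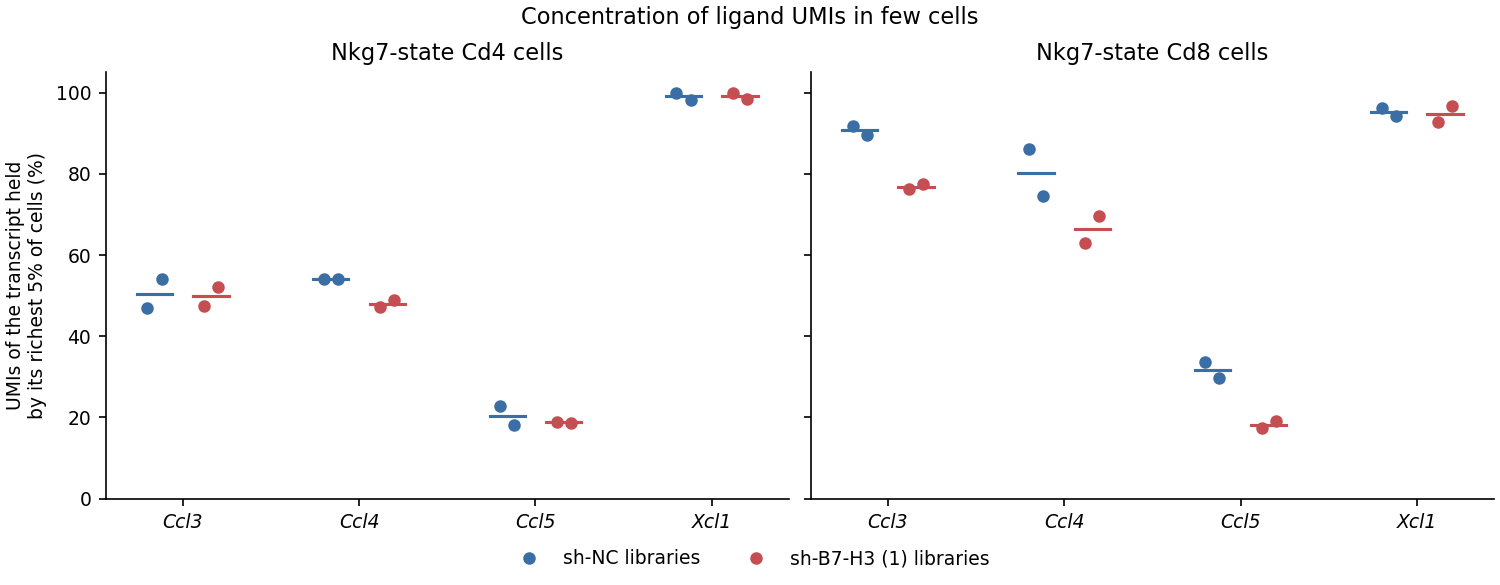
Share of each ligand's UMIs that the richest 5% of cells held within Nkg7-state Cd4 and Cd8 cells of each library (%). Points are libraries (2 per group) and bars their group means. In Cd4 cells the groups lie together for Ccl3, at 46.9 and 54.1% in control and 47.5 and 52.2% in knockdown libraries, and in Cd8 cells the controls lie higher, at 91.7 and 89.6% against 76.1 and 77.4%.

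Among receptors and related proteins, Ccrl2, a receptor-like protein that binds chemerin and does not signal, rose from 6.13 and 8.35 to 52.5 and 52.1 CPM in Cd4 cells (2.76 ± 0.121) and from 3.43 and 3.42 to 26.6 and 21.7 CPM in Cd8 cells (2.70 ± 0.126). In Foxp3 cells it stood at 19.0 and 21.2 against 30.1 and 34.2 CPM and did not pass (0.68 ± 0.224). Ccr1, a receptor of CCL3 and CCL5, and Xcr1, the receptor of XCL1, passed the test in Cd8 cells but stayed under 1 CPM in every library there. Ccr1 stood at 19.4 and 22.4 against 23.4 and 35.7 CPM in Foxp3 cells and did not pass (0.51 ± 0.236). Ackr2, a scavenging receptor, had no UMI in any of these sums.

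Among 36 other measured chemokine ligands few were found in these cells. In Cd4 cells 5 could be tested and 1 rose, in Cd8 cells 9 and 5, and in Foxp3 cells 4 and none, where 8.5, 7.95 and 0.818% of all genes were called higher. None of these reached the mean of 20 CPM set for naming, so they are named here after their values were seen. The gene in Cd4 cells was Ccl8, and those in Cd8 cells were Ccl1, Ccl6, Ccl8, Pf4 and Cxcl16. All but Ccl1 stayed under 1.5 CPM in every library, and Ccl6, Ccl8 and Pf4 are known from macrophages, whose marker level is given above. Ccl1, a ligand of CCR8, stood at 0.104 and 0.0389 CPM in sh-NC and at 65.0 and 12.9 CPM in sh-B7-H3 (1) Cd8 cells. In Cd4 cells it stood at 38.5 and 26.9 against 11.1 and 62.3 CPM, so that the groups overlapped, and was not called (0.16 ± 0.309). A list of 26 activation and effector genes was chosen with earlier results of these data known. It holds genes that the study reports as higher in these knockdown T cells, so its counts are no independent test. Of these 26 genes, 17 rose and none fell in Cd4 cells (median log2 fold change 1.80), where 8.5% of all genes were called higher and 3.02% lower. In Cd8 cells 17 rose and 1 fell (1.53), where 7.95% were called higher and 2.28% lower. In Foxp3 cells 8 of 24 tested rose and none fell (0.51), where 0.818% were called higher and 0.386% lower. The median over all genes tested was close to 0 in each (-0.00119, 0.00181 and -0.00125). Ifng, the main cytokine of type 1 responses, stood at 35.0 and 48.5 against 241 and 177 CPM in Cd4 cells and rose by 2.21 ± 0.109. Nr4a2, a factor induced by receptor signaling, rose by 2.60 ± 0.0770 in Cd4 and 2.77 ± 0.0896 in Cd8 cells. Bhlhe40 rose by 1.78 and 2.37, Irf8 by 1.99 and 1.62, and Tnfrsf9 by 1.79 and 2.11 in Cd4 and Cd8 cells. Nr4a1, Nr4a3, Egr1 and Egr2 were not called there, with -0.16, 0.06, 0.11 and 0.27 in Cd4 cells and -0.20, 0.63, -0.02 and 0.36 in Cd8 cells. Tnf stood at 16.4 and 14.4 against 19.2 and 21.5 CPM in Cd4 cells and did not pass (0.31 ± 0.128), and Gzmb passed in Cd8 cells (1.46 ± 0.0586) but not in Cd4 cells (-0.28 ± 0.166). Lta, which encodes lymphotoxin alpha, was the 1 gene of the list that fell, in Cd8 cells, by 1.01 ± 0.123 on the log2 scale.

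Genes with a like pattern were ranked by Pearson correlation of log2(CPM + 1) over the 12 sums of 3 populations and 4 libraries, among the 4734 genes whose mean reached 20 CPM. The sums share libraries and depth, and Cd4, Cd8 and Foxp3 cells of a library are not independent, so these values only describe. Ccl3 was most like Nr4a2 (0.967), Ccl4 (0.959), Hnrnph3 (0.958), Chn2 (0.935) and Spp1 (0.929). Ccl4 was most like Nr4a2 (0.963), Chn2 (0.960), Ccl3, Slc25a12 (0.930) and Plek (0.920). Ccl5 was most like Hcst, which encodes the signaling adaptor DAP10 (0.988), Trgv2 (0.985), Lax1 (0.983), Fasl (0.979) and Adgrg1 (0.978), and less like Ccl3 (0.763) and Ccl4 (0.790). Trgv2 is a gene of the gamma-delta list above, and which cells carried it was not tested. Xcl1 followed none of the other 3 closely (0.277 with Ccl3, 0.489 with Ccl4 and 0.551 with Ccl5), and its nearest genes were Epb41 (0.868), Znrf2 (0.850), Snrk (0.816), Jade1 (0.797) and Ppp6r1 (0.766).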

How the data were processed

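CITE-seq libraries (10x 3′ kit) were aligned by the authors with Cell Ranger and STAR to mm10. The authors deposited UMI counts per gene and antibody tag, as matrices of called cells and of all barcodes. The file headers name Cell Ranger versions that differ from the one in the study's methods. From these deposited counts, cells were kept and called by RNA (Cd4 cells: at least 1 Cd4 UMI; Cd8 cells: at least 3 Cd8a and Cd8b1 UMIs; each without UMIs of the other or of Foxp3; Foxp3 cells: at least 1 Foxp3 UMI and none of Cd8a or Cd8b1). Cells with 5 myeloid or 3 B cell marker UMIs were left out. The myeloid-marker cells made up 1.66 and 1.96% of kept cells in sh-NC and 7.14 and 5.59% in sh-B7-H3 (1) libraries. Their Ccl3 stood at 184 and 413 against 416 and 310 CPM, and their Ccl5 at 1923 and 1752 against 6062 and 6246 CPM. T cells with no call, also left out, made up 26.1 and 23.1 against 27.6 and 27.5%. They held Ccl3 at 81.7 and 55.9 against 766 and 485 CPM. The study removed doublets by a method not given in the sources used here; they were kept here and removed in 2 alternatives (a simulation score, cut by Otsu's method, which removed 18.0 to 25.6% of kept cells, or at a rate of 0.8% per 1000 cells). UMIs were summed per library and tested with edgeR 4.0.16 in R 4.3.3 (TMM, filterByExpr, quasi-likelihood test, no block, calls at adjusted p of 0.05 and a log2 fold change of 1). DESeq2 1.42.0 was an alternative. Where the richest cells of a ligand were left out, only its own UMIs in them were subtracted, and the cells stayed in the sums. Standard errors were derived from the F statistic. The test was run on simulated data. Named genes were the 4 ligands, their receptors and related proteins, other chemokine ligands called at a mean of at least 20 CPM, 26 activation genes and the 5 most correlated genes of each ligand. Members and lists were chosen with earlier results of these data known. UMI totals (79224898 to 132820909 per library) limit counting error only. Sequences are from RefSeq GRCm38.p6, where Ccl3 and Xcl1 matched. Resting cells (at least 1 Ccr7 UMI and no Nkg7) were set by Ccr7 alone after the data were seen, in place of a wider definition. Some items are not reported here.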

Additional observations from a re-analysis of the deposited data

Results flagged for a closer look

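Differences of the knockdown effect between cell types stood out for 7 values. Relative to Cd4 cells the log2 effect differed by 1.37 for Xcl1 in Cd8 cells, by 1.08 for Ccl3 in Foxp3 cells and by -2.46 for Xcl1 in Foxp3 cells, each of which lost its call in DESeq2. The first and the second also lost it without the richest cells, and the last rests on 1 cell. Within the Nkg7 state it differed between Cd8 and Cd4 cells by 1.96 for Ccl3, 1.99 for Ccl4, 1.62 for Ccl5 and 3.09 for Xcl1. The CC ligands kept their call without the richest 5% of cells of each library. That setting took a larger share of UMIs from control than from knockdown Cd8 cells. It thus widened the Cd8 difference and is no check of it. At 10 Nkg7 UMIs the Ccl5 value was 0.95 and lost its call, and Nkg7 itself rose with the knockdown.

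Cells that the limits removed from the main sums carried the ligands too, and held the CC ligands at a higher level in the knockdown libraries. Cells with over 3000 genes held a mean of 329 CPM of Ccl3 in sh-B7-H3 (1), against 43.4 and 78.9 CPM in the sh-NC libraries. They held 552 CPM of Ccl4 against 95.1 and 121, 4155 CPM of Ccl5 against 719 and 742, and 64.4 CPM of Xcl1 against 40.5 and 32.2. Cells over the mitochondrial limit of 5% held 174 CPM of Ccl3 against 83.4 and 15.3, 316 CPM of Ccl4 against 215 and 48.7, and 3123 CPM of Ccl5 against 1041 and 915. Their Xcl1 groups overlapped, at 25.6 and 8.21 CPM in sh-NC and 27.4 and 21.6 CPM in sh-B7-H3 (1) libraries. The share of all genes that were higher in this way in the removed cells was not counted.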

How the results depend on the processing

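The rises of Ccl3, Ccl4 and Ccl5 in Cd4 and Cd8 cells kept their direction and call under every alternative run except Nkg7-state cells only. Without 1 library in turn they ranged from 2.23 to 2.49, 1.82 to 2.02 and 2.07 to 2.51 in Cd4 cells and from 3.02 to 3.27, 2.57 to 2.87 and 2.31 to 2.67 in Cd8 cells. Restricted to Nkg7-state cells, chosen after the data were seen, the Cd4 values turned to -0.25, -0.71, -0.31 and, for Xcl1, -2.65, and Xcl1 in Cd8 cells (0.42), Ccl4 (0.97) and Ccl5 (0.48) in Foxp3 cells lost their calls. Xcl1 in Cd4 cells ranged from -0.65 (without sh-B7-H3 (1) 2) to 0.64 and was -0.38 with doublets removed by Otsu's method, which also took the Cd8 Xcl1 call (0.93), as did keeping cells of over 3000 genes (0.65). In Foxp3 cells Xcl1 ranged from -3.34 to -1.93 without 1 library. This range lacks the run without sh-NC 2, which would set 1.14 against 5.85 and 2.91 CPM, the other direction. In those cells Xcl1 was -2.38 with no adjusted p in DESeq2, -2.40 with myeloid cells kept (edgeR adjusted p = 0.180) and 0.00 with cells of over 3000 genes kept (0.00247). Ccl4 there was 2.32 in DESeq2 (adjusted p = 0.0742), and Ccl4 and Ccl5 were 0.87 and 0.94 under the stricter call. The share of Foxp3 cells with Xcl1 differed by -0.0449 points at 1000 UMIs per cell. The cause was not tested.

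Without the fold limit the called genes numbered 4631, 5575 and 570 between groups in Cd4, Cd8 and Foxp3 cells, against 1270, 1215 and 106, since that limit alone was dropped. They numbered 4001 and 3525 between Cd8 or Foxp3 and Cd4 cells, against 687 and 963, and 715 and 885 for the difference of effect, against 140 and 341. DESeq2 called 19 in Foxp3 cells, 434 between Cd8 and Cd4 cells, and 37 and 103 for the differences of effect. Cells thinned to 2000 UMIs gave 770 in Cd4 and 40 in Foxp3 cells. Without 1 library in turn the counts ranged from 1108 to 1277, 1064 to 1233 and 72 to 122.

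For the difference of effect between Cd8 and Cd4 cells, Xcl1 was 0.93 without sh-NC 1 and 0.96 without sh-B7-H3 (1) 1. Between Foxp3 and Cd4 cells Ccl4 turned to -0.19 without sh-NC 1 and to -0.077 without the richest cells, and was 1.54, above the fold limit, without sh-NC 2. Ccl5 ranged from -1.02 to -0.19 without 1 library in turn. Xcl1 turned to 1.82 without sh-NC 2 and 1.05 without the richest cells, and ranged down to -3.60. With at most 7 Foxp3 UMIs left in a library, neither of the former is a test of it. Within the Nkg7 state, Ccl3 and Ccl4 in Cd4 cells turned to 0.54 and 0.24 without the 10 richest cells, a number that takes a larger share of the 131 and 139 control than of the 370 and 456 knockdown cells, and kept their direction without the richest 5%. There Xcl1 in Cd8 cells turned to -0.11 with doublets removed and -0.12 at 10 Nkg7 UMIs. The Xcl1 difference of effect gave -2.56 without the 10 richest cells, which left almost no control UMIs in Cd4 cells and so is no test.

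With the replicate number as a replicate block the counts were 1264, 1252 and 113. Same-numbered libraries did not deviate together (correlations -0.113, -0.145 and -0.0213), and the block changed no call of a ligand. The crossed pairing, added later, gave 1266, 1166 and 119 genes. The Foxp3 sums held 3 to 110 UMIs of Xcl1, with 108 of the 110 in 1 cell.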
